A study of Homo sapiens with 4 samples.

Results

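Genes of 6 solute carrier families that move amino acids across membranes were examined in HEK293 cells, a human embryonic kidney cell line transformed with adenovirus DNA. Members were every gene whose symbol is SLC1A, SLC3A, SLC7A, SLC36A, SLC38A or SLC43A followed by a number and that has an array probe set assigned to it alone. This gave 38 genes and 91 probe sets, out of 19777 genes on the array with such a probe set. SLC36A2, SLC36A3 and SLC38A8 had none and were not analysed here. The cells had been kept for 7 days in serum-supplemented DMEM, either with high glucose at 450 mg/dl (2 arrays) or with low glucose at 100 mg/dl (2 arrays), and total RNA of each was hybridised to 1 single-colour Affymetrix array. The series' design calls the 2 arrays of a group biological replicates, all of the same cell line and with no genetic change. All values are from whole cultures, in which fewer cells of a kind and less RNA per cell cannot be told apart.

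Amino acid carriers set which amino acids a cell can take up, exchange or release. SLC3A2 and SLC3A1 are glycoprotein heavy chains that carry light chains of the SLC7A family to the cell surface, while the cationic amino acid transporters of the SLC7A family work without a heavy chain. SLC1A members carry glutamate or small neutral amino acids with sodium, and SLC38A members carry glutamine, alanine and other small neutral amino acids. SLC36A1 is coupled to protons, and SLC43A1 and SLC43A2 move large neutral amino acids by facilitated diffusion. Several of these genes belong to the ATF4 programme, through which cells short of amino acids raise their import. The name plasma membrane transporters does not hold for every member: SLC38A7, SLC38A9 and SLC7A14 are known mainly from lysosomes, SLC36A1 works in lysosomes as well as at the surface, and SLC43A3 is known as a carrier of purine nucleobases.

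Among the 24 members bright enough to be tested, 14 were lower and 3 were higher in high glucose, and 7 did not pass the test (limma, adjusted p under 0.05). Over all 12242 genes tested, 33.3% were lower and 24.3% higher, 57.6% in all. The largest falls were those of the cystine carrier SLC7A11 (8.06-fold), of its heavy chain SLC3A2 (5.17-fold) and of the neutral amino acid carrier SLC1A4 (3.23-fold). Glutamate carrier SLC1A1 rose 2.21-fold and the large neutral amino acid carrier SLC7A5 rose 1.75-fold. A fall of at least 2-fold was called in 5 members, against 8.03% of all genes, and a rise of at least 2-fold in 1 member, against 3.42% of all genes. SLC7A11 and SLC3A2 fell at least 4-fold, as did 1.09% of all genes. The median log2 fold change was -0.38 over the 24 members and -0.10 over all genes tested.

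Signals are a brightness in arbitrary linear units. A gene was tested on its brightest probe set when the mean of the 4 log2 signals was at least the median over all probe sets, equal to a signal of 32.9 (a geometric mean). Below this level lay 14 members, which the test leaves out. A log2 fold change is the mean log2 signal in high glucose minus that in low glucose, with its standard error from the fit, and means of signals are given with the SD over n = 2 arrays. SLC7A7 and SLC7A9 passed only through their low glucose signals, so counts over the 24 members are not counts over the families.

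The 4 arrays had the same trimmed mean signal of 200.02 and medians between 33.3 and 38.7. Of the marker genes set for HEK293, VIM, NEFL, CDH2, LHX1 and PAX2 lay above the filter and NEFM below it. Markers of lymphocytes and hepatocytes with a probe set all lay below it, as did all endothelial markers except PECAM1 and all fibroblast markers except COL1A1. The summed signal of the 4 fibroblast markers, most of it COL1A1, was 362 and 361 in high glucose, against 262 and 268 in low glucose. That of the 3 hepatocyte markers was 54.2 and 54.2 in high glucose, against 98.9 and 89.2 in low glucose. The 6 HEK293 markers, with most of the signal from VIM, summed to 8094 and 8448 in high glucose, against 12901 and 13246 in low glucose. CDH2 among them was higher in high glucose, as was LHX1, which passed the filter only through its high glucose signals. For the 24 probe sets of the bacterial poly-A controls, spiked into the RNA ahead of labelling, every high glucose signal exceeded every low glucose signal, with a median difference of 1.94 log2 units (3.84-fold). The 6 ribosomal RNA probe sets had a median difference of 1.73 log2 units in the same direction, and the 18 hybridisation controls had a median of 486 on high glucose replicate 1 and between 869 and 891 on the other arrays. The part of these differences in the results below was not tested. All 3 rises among the members were smaller than the median rise of the poly-A probe sets. Among the called falls, only those of SLC7A11 and SLC3A2 were larger in size than it.

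**Figure D1:**
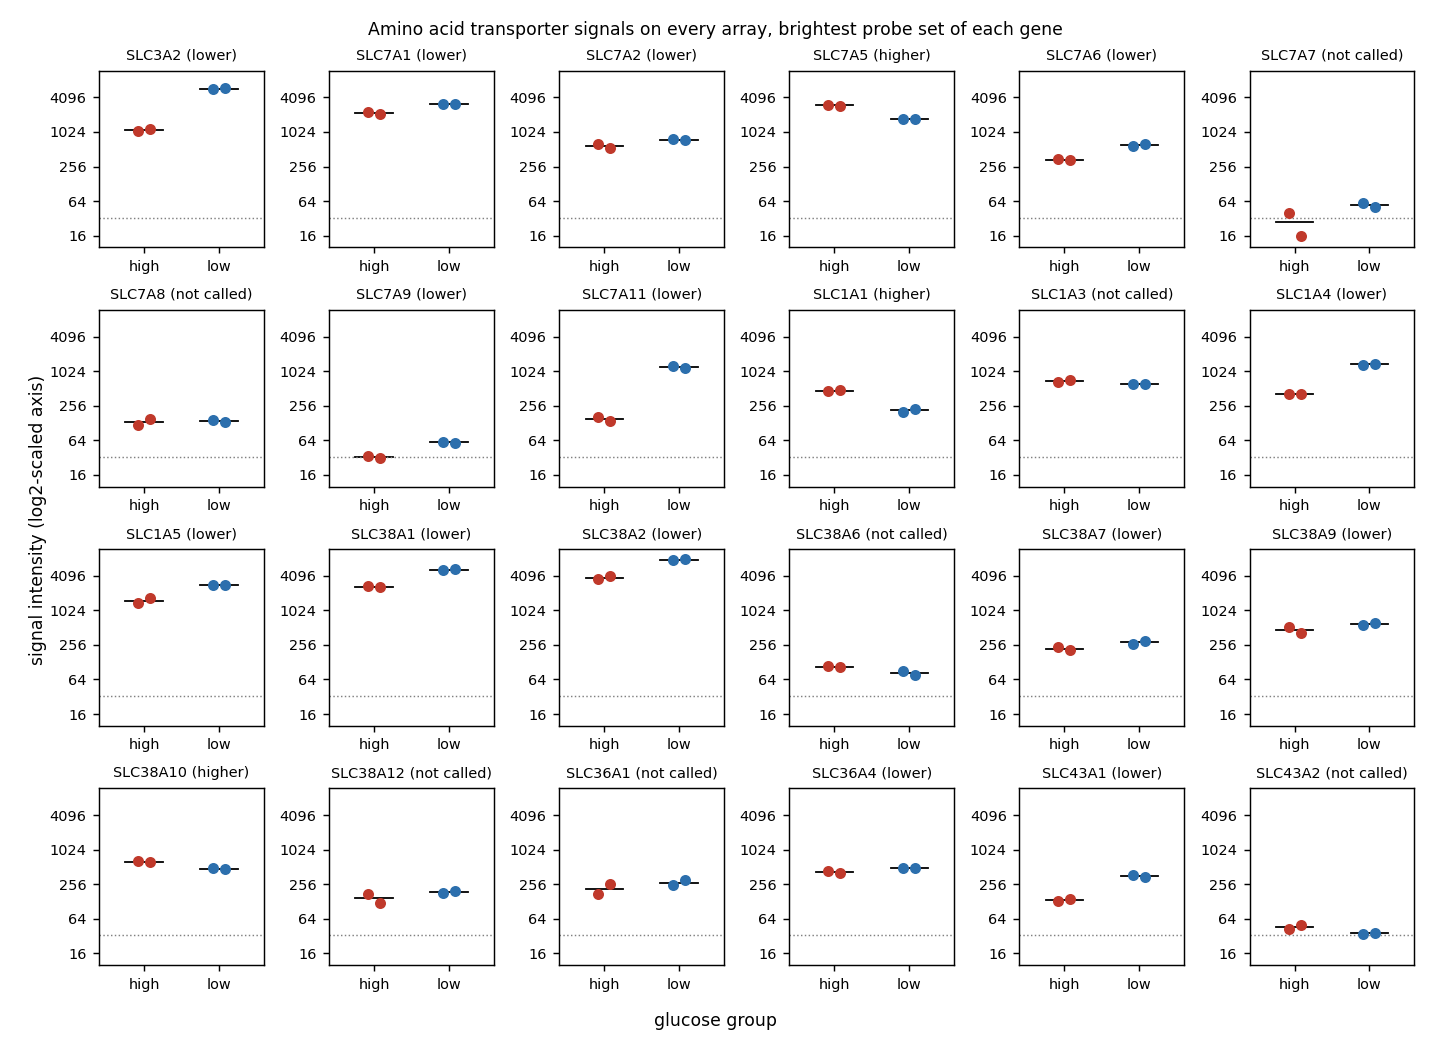
Signal intensity of the brightest probe set of each of the 24 tested members (y axis, log2-scaled) in high glucose (red) and low glucose (blue), with 1 point per array, a black line at the group mean and a dotted line at the filter of 32.9. The high glucose points lie below both low glucose points in 16 panels and above them in 6, and the groups overlap for SLC36A1 and SLC7A8.

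The groups did not overlap in 22 of the 24 members, with high glucose below low in 16 and above it in 6. Over all genes, 46.2% had high glucose below low and 33.6% had it above.

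Promoter windows of 300 bases, 250 before and 50 from the start of a transcript, were held for 29 of the 38 members in the RefSeq table of build GRCh38.p14 (51 windows). SLC7A11, SLC7A2, SLC7A3, SLC7A4, SLC7A13, SLC1A2, SLC3A1, SLC38A3 and SLC43A3 were not among them. They were searched on both strands for TGATGNAAN, the composite element of C/EBP and ATF factors through which ATF4 acts, and for TGACNNNGC, the core of the antioxidant response element bound by NRF2. Of the 29 members with a window, 12 fell in high glucose, as did 33.3% of all genes tested. The sites of the first element are shown because 5 of the 6 genes that hold it fell, a link that was not tested. Each is printed 5′ to 3′ on the strand that carries the motif, in 30 bases, with the motif in capitals.
SLC1A4, chr2:64989380-64989409, minus strand: cggctggagaTGATGCAAAcgggagccgcg
SLC1A5, chr19:46784893-46784922, minus strand: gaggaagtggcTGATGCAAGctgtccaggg
SLC3A2, chr11:62881719-62881748, minus strand: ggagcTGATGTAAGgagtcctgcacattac
SLC38A1, chr12:46266502-46266531, minus strand: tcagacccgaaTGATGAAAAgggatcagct
SLC7A1, chr13:29595663-29595692, minus strand: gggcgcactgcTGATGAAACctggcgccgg
SLC1A3, chr5:36596357-36596386, plus strand: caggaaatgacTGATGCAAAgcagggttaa

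The composite element was found in 5 of the 12 called-lower genes with a window, in none of the 3 genes that rose, in 1 of 7 that did not pass, which was SLC1A3, and in none of the 7 below the filter. Among all 27305 genes with a window, 4.45% held it in at least 1 window. A gene with more windows has more chances to hold a match. By window, the element was in 6 of the 51 member windows and in 3.61% of all windows. SLC38A2 and SLC43A1, which fell at least 2-fold, have windows without it. It starts 97 bases before a transcript start of SLC1A5 and 220 bases before one of SLC1A3, and spans the start in SLC1A4 and SLC38A1. In SLC3A2 and SLC7A1 it lies just after the start, at positions 37 to 45 and 8 to 16 counted from the first transcribed base. Several genes have more than 1 annotated start, and the match was in 1 window of each. A match of letters does not show that a factor binds there.

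The antioxidant core was found in 7 of the 29 members, namely SLC1A3, SLC1A5, SLC3A2, SLC7A1, SLC7A5, SLC7A6 and SLC7A7, and in 16.1% of all genes. By window, it was in 7 of the 51 member windows and in 13.3% of all windows. By their brightest probe sets, 4 of these 7 fell, 1 rose and 2 did not pass. Their share of falls is near that of all tested members, 14 of 24. The 4 falls include SLC7A6, whose other probe sets do not share its direction. Of the windows, those of SLC3A2 and SLC7A1 held both elements, which do not overlap each other. The 250 bases before the SLC3A2 start are shown because this heavy chain had the second largest fall among the members. The capitals mark the antioxidant core, 37 to 29 bases before the start.
SLC3A2, chr11:62881449-62881698, plus strand: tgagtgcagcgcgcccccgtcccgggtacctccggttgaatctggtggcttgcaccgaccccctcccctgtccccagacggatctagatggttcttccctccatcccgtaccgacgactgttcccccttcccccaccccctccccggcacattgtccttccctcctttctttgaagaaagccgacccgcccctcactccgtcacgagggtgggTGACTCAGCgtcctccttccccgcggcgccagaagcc

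SLC3A2 encodes 4F2hc (CD98), the heavy chain that SLC7A5, SLC7A6, SLC7A7, SLC7A8, SLC7A10 and SLC7A11 need to reach the cell surface. Its signal was 1085 and 1157 on the high glucose arrays, against 5642 and 5940 on the low glucose arrays. Both high glucose values lay far below both low glucose values. The log2 fold change was -2.37 ± 0.06 (limma adjusted p = 5.3e-07), the second largest in size among the members and rank 95 of the 12242 genes by size. SLC3A2 has 1 probe set on the array. SLC3A1, the heavy chain rBAT of the cystine and dibasic amino acid carrier, lay below the filter and read 37.8 and 45.8 in high glucose, against 15.0 and 29.8 in low glucose.

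SLC7A11, or xCT, pairs with SLC3A2 to import cystine in exchange for glutamate and so feeds glutathione synthesis. Its brightest probe set read 162 and 140 in high glucose, against 1243 and 1184 in low glucose. The second probe set read 132 and 140 in high glucose, against 1025 and 1042 in low glucose. Both probe sets therefore separated the groups by a wide margin, with log2 fold changes of -3.01 ± 0.09 (limma adjusted p = 8.4e-07) and -2.93 ± 0.08 (adjusted p = 1.4e-06 in the fit of all probe sets). By size SLC7A11 was rank 38 of all genes. A dimmer probe set, below the filter, read at most 49.4 on any array.

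SLC7A5, or LAT1, takes up leucine and other large neutral amino acids together with SLC3A2. It went the other way from its heavy chain, with signals of 3026 and 2935 in high glucose, against 1693 and 1721 in low glucose. The log2 fold change was 0.80 ± 0.06 (limma adjusted p = 2.4e-05), and it was called higher under every alternative that kept its 1 probe set. This rise of 1.75-fold was smaller than the 3.84-fold difference of the poly-A probe sets on the same arrays.

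The light chains of the remaining SLC3A2 partners gave a mixed picture. SLC7A6, or y+LAT2, exchanges cationic for neutral amino acids. Its brightest probe set read 349 and 329 in high glucose, against 573 and 620 in low glucose, a fall of 0.81 ± 0.08 on the log2 scale (limma adjusted p = 1.2e-04). Its dimmest probe set went the opposite way, with 110 and 130 in high glucose, against 65.6 and 69.4 in low glucose. That rise of 0.82 ± 0.19 log2 units also passed (adjusted p = 0.0091 in the fit of all probe sets), while the remaining one stood at 0.27. The direction of SLC7A6 thus depends on the probe set, and the mean of its probe sets had a log2 fold change of 0.095. SLC7A6OS, a gene on the opposite strand that adjoins SLC7A6, has 2 probe sets with log2 fold changes of 0.79 (adjusted p = 0.0075) and 0.16 (not called).

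SLC7A8, or LAT2, is a further carrier of neutral amino acids. Its brightest probe set read 118 and 149 in high glucose, against 142 and 133 in low glucose, so the groups overlapped and the gene did not pass (limma adjusted p = 0.80). Of its 3 other probe sets above the filter, 2 were called higher in high glucose. One of them read 161 and 139 in high glucose, against 103 and 60.7 in low glucose, and the other read 96.4 and 84.2 in high glucose, against 31.0 and 60.7 in low glucose. The spread between low glucose arrays was wide in both. SLC7A7, or y+LAT1, read 40.2 and 15.9 in high glucose, against 58.3 and 50.5 in low glucose, a log2 difference of -1.10 ± 0.46 that did not pass (limma adjusted p = 0.074). Without high glucose replicate 1 it stood at -1.77 and passed, and without high glucose replicate 2 at -0.43 (adjusted p = 0.36). SLC7A10, the alanine, serine and cysteine carrier asc-1, lay below the filter and read 3.001 and 1.54 in high glucose, against 3.06 and 19.6 in low glucose, where the low glucose arrays lie far apart.

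SLC7A9, the light chain partner of SLC3A1, read 34.2 and 31.2 in high glucose, against 60.7 and 58.0 in low glucose. The fall of 0.86 ± 0.27 on the log2 scale passed narrowly (limma adjusted p = 0.029). It lost its call when any 1 of the 4 arrays was left out (adjusted p between 0.075 and 0.11) and under each of the 3 normalizations. Its high glucose mean of 32.7 lies just under the filter, where signal and background cannot be told apart here.

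Cationic amino acid transporters, which bring in arginine, lysine and ornithine, fell by little. SLC7A1, or CAT-1, read 2244 and 2143 in high glucose, against 3100 and 3199 in low glucose. This was a log2 fold change of -0.52 ± 0.06 (limma adjusted p = 2.2e-04). Of its 3 other probe sets above the filter 1 was also called lower, and all had log2 fold changes between -0.32 and -0.03. SLC7A2, or CAT-2, read 629 and 544 in high glucose, against 762 and 731 in low glucose, a fall of 0.35 ± 0.08 on the log2 scale (limma adjusted p = 0.0083). After median centring of the arrays SLC7A2 stood at -0.18 and no longer passed. SLC7A3 and SLC7A4, and the lysosomal SLC7A14 and the light chain SLC7A13, lay below the filter.

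**Figure D2:**
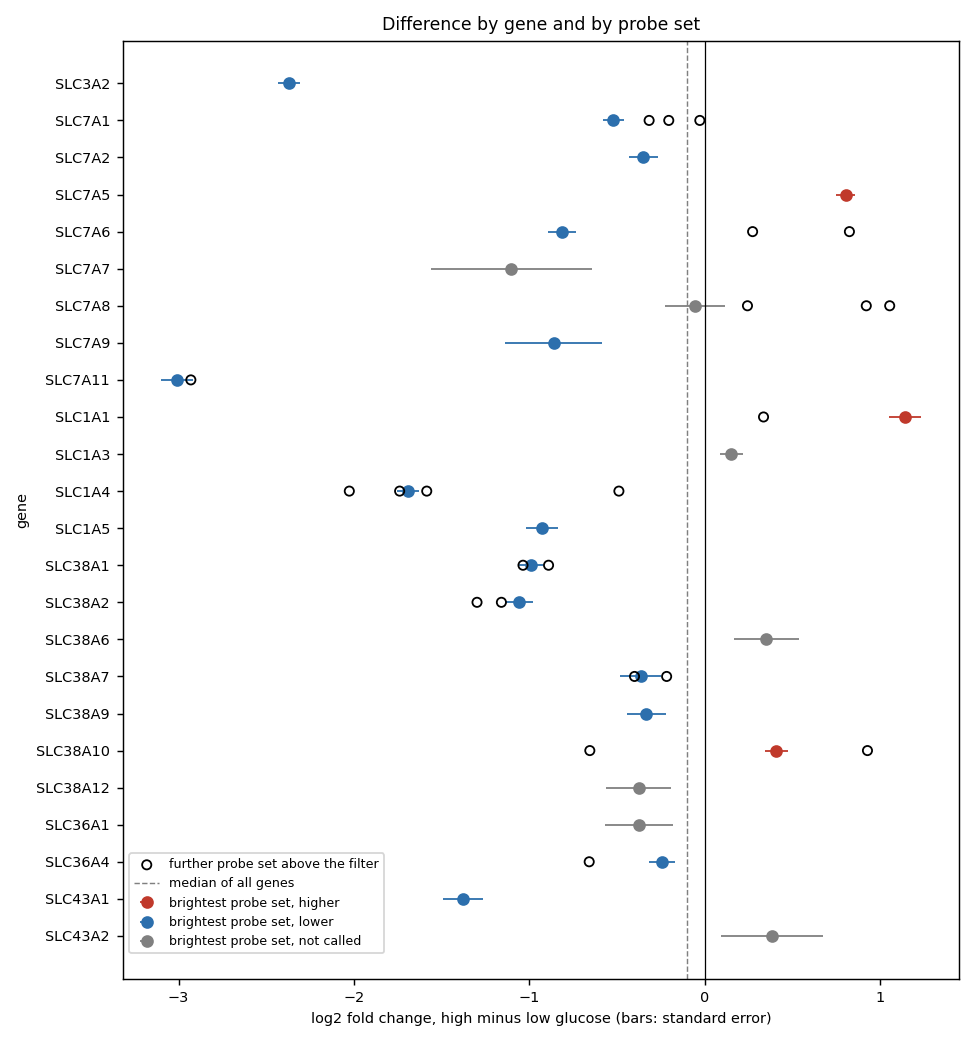
Log2 fold change, high minus low glucose (x axis), of each tested member (y axis, by family). Filled points are brightest probe sets with their standard error, coloured by call, open points are further probe sets above the filter, and the dashed line is the median of all genes at -0.10. SLC7A11 and SLC3A2 lie farthest to the left, while SLC7A6 and SLC38A10 have probe sets called in opposite directions.

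The SLC1A family splits into sodium-coupled carriers of neutral amino acids and carriers of glutamate. Both neutral carriers fell. SLC1A4, or ASCT1, a carrier of serine, alanine and cysteine, read 414 and 416 in high glucose, against 1320 and 1362 in low glucose. The log2 fold change was -1.69 ± 0.06 (limma adjusted p = 1.7e-06). Of its 5 probe sets above the filter, 4 were called lower with log2 fold changes between -2.03 and -1.59. The dimmest stood at -0.49 and did not pass. It is the only one left when probe sets marked as shared between transcripts or as prone to cross-hybridise are dropped.

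SLC1A5, or ASCT2, is a main route of glutamine uptake in proliferating cells. It read 1368 and 1662 in high glucose, against 2868 and 2867 in low glucose. The fall of 0.93 ± 0.09 on the log2 scale passed (limma adjusted p = 1.1e-04) and did so under all 14 alternatives. Both genes hold the composite element printed above.

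Neither of the tested glutamate carriers of the family was called lower. SLC1A1, or EAAT3, which carries glutamate and cysteine, read 465 and 473 in high glucose, against 203 and 223 in low glucose. Its log2 fold change of 1.14 ± 0.09 was the largest rise among the members (limma adjusted p = 5.0e-05). A dimmer probe set stood at 0.34 ± 0.25 and did not pass. The poly-A probe sets rose by more, 1.94 log2 units. SLC1A3, or EAAT1, read 665 and 710 in high glucose, against 617 and 622 in low glucose, a difference of 0.15 ± 0.07 that did not pass (limma adjusted p = 0.086), though it passed after median centring, at 0.32. SLC1A3 is the gene with the composite element that was not called.

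SLC1A2, or EAAT2, lay below the filter, but its brightest probe set read 8.50 and 7.03 in high glucose, against 81.7 and 60.2 in low glucose. Without any filter it was the only one of the 14 dim members to be called (limma adjusted p = 0.0020), and its high glucose signals are too low to tell from background. Its 5 other probe sets had signals of at most 20.8. SLC1A6 and SLC1A7, glutamate carriers of cerebellum and retina, were also below the filter.

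In the SLC38A family, the surface carriers SLC38A1 and SLC38A2 fell together. SLC38A2, or SNAT2, is the carrier that many cells raise when amino acids are short. It read 3544 and 3999 in high glucose, against 7656 and 8010 in low glucose. The log2 fold change was -1.06 ± 0.08 (limma adjusted p = 3.5e-05), and its 2 other probe sets fell by 1.16 and 1.30 on the log2 scale. No probe set of SLC38A2 is left when those marked as shared or as prone to cross-hybridise are dropped. SLC38A1, or SNAT1, a glutamine carrier, read 2734 and 2569 in high glucose, against 5090 and 5446 in low glucose. This fall of 0.99 ± 0.07 log2 units (limma adjusted p = 2.3e-05) was shared by its 2 further probe sets, which fell by 1.04 and 0.89 on the same scale. All 6 probe sets of these 2 genes above the filter were thus called lower, within a range of -1.30 to -0.89.

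The lysosomal members of the family had smaller differences. SLC38A9, the lysosomal arginine sensor upstream of mTORC1, read 529 and 420 in high glucose, against 579 and 610 in low glucose, with a log2 fold change of -0.33 ± 0.11 (limma adjusted p = 0.034). SLC38A7, a lysosomal exporter of glutamine and asparagine, read 232 and 210 in high glucose, against 265 and 305 in low glucose, at -0.37 ± 0.12 (limma adjusted p = 0.030). These small falls are not stable. SLC38A7 no longer passed when high glucose replicate 2 (adjusted p = 0.13) or low glucose replicate 2 (0.15) was left out. SLC38A9 no longer passed without high glucose replicate 2 (0.18), low glucose replicate 1 (0.052) or low glucose replicate 2 (0.10). After median centring they stood at -0.20 and -0.16 and neither passed.

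SLC38A10, a member found in intracellular membranes, has probe sets called in opposite directions. The brightest read 638 and 621 in high glucose, against 480 and 468 in low glucose, a rise of 0.41 ± 0.07 log2 units (limma adjusted p = 0.0015). A second one read 225 and 243 in high glucose, against 355 and 382 in low glucose, a fall of 0.66 ± 0.09 on the log2 scale (adjusted p = 0.0012 in the fit of all probe sets). The gene therefore has no settled direction. SLC38A6 (0.35 ± 0.19) and SLC38A12 (-0.38 ± 0.18), annotated as TMEM104 in older lists, did not pass. Without high glucose replicate 1, SLC38A12 stood at -0.63 and passed, and without high glucose replicate 2 at -0.13 (adjusted p = 0.55). SLC38A3, SLC38A4, SLC38A5 and SLC38A11 were below the filter.

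Large neutral amino acids are also moved by SLC43A1, or LAT3, a facilitated carrier that needs no heavy chain. It read 130 and 141 in high glucose, against 367 and 339 in low glucose. The log2 fold change was -1.38 ± 0.11 (limma adjusted p = 5.4e-05), and the call held under all 14 alternatives. SLC43A1 thus fell while SLC7A5, which carries overlapping substrates, rose. SLC43A2, or LAT4, read 42.7 and 50.3 in high glucose, against 35.0 and 36.2 in low glucose and did not pass (0.38 ± 0.29, limma adjusted p = 0.29). SLC43A3 was below the filter.

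By their brightest probe sets, the SLC36A carriers had small differences. SLC36A1, or PAT1, read 170 and 253 in high glucose, against 244 and 298 in low glucose, and the groups overlapped (-0.38 ± 0.19, limma adjusted p = 0.13). Without high glucose replicate 2 it stood at -0.66 and passed, and without high glucose replicate 1 at -0.09 (adjusted p = 0.67). SLC36A4, or PAT4, a carrier of proline and tryptophan, read 435 and 405 in high glucose, against 497 and 495 in low glucose. This fall of 0.24 ± 0.08 log2 units (limma adjusted p = 0.027) was not called when high glucose replicate 2 (adjusted p = 0.14), low glucose replicate 1 (0.073) or low glucose replicate 2 (0.066) was left out. After median centring SLC36A4 stood at -0.073 (adjusted p = 0.54), and without the intensity trend it also missed the threshold (0.060). A dimmer SLC36A4 probe set fell by more, 0.66 ± 0.20 log2 units (limma adjusted p = 0.030 in the fit of all probe sets). The mean of its probe sets stood at -0.45 (limma adjusted p = 0.014).

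By family, and against 33.3% lower and 24.3% higher of all genes, 5 of the 8 tested SLC7A members fell and 1 rose, 4 of the 7 SLC38A members fell and 1 rose, and 2 of the 4 SLC1A members fell and 1 rose. The SLC7A falls include SLC7A9, which was testable only through its low glucose signals, and SLC7A6, whose probe sets disagree. The single tested SLC3A gene fell, as did 1 of 2 SLC36A and 1 of 2 SLC43A members. Of all 47 member probe sets above the filter, 26 were called lower and 6 higher, against 27.2% and 23.1% of all probe sets. Probe sets of the same gene are not independent, so this count adds no separate support to that of the genes. In 11 members more than 1 probe set could be tested. Their probe sets agreed in sign in 8 of them and were called in opposite directions in SLC7A6 and SLC38A10. The 14 dim members had 29 probe sets, with signals between 0.459 and 81.7.

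Other carriers of amino acids and small peptides, from the SLC6A, SLC15, SLC16, SLC17 and SLC66 families, were set beside the members. Beside the counts of this list and of those that follow stand the 33.3% of all genes that were lower and the 24.3% that were higher. Of 20 on this list 10 were bright enough to test, and 8 fell and 1 rose, with a median of -0.52 log2 units. Among the 8, SLC6A9, SLC6A17 and SLC15A2 passed the filter only through their low glucose signals. This fixed their direction, though not that they would be called, and the count is no more than a description. SLC15A4, a lysosomal histidine and peptide carrier, read 535 and 551 in high glucose, against 765 and 759 in low glucose (-0.49 ± 0.06). SLC66A1, the lysosomal exporter of cationic amino acids, fell by 0.54 ± 0.08 on the log2 scale. SLC6A17, a vesicular neutral amino acid carrier, fell by 2.08 ± 0.32 on the same scale. The one that rose was SLC16A10, or TAT1, which carries aromatic amino acids, at 0.52 ± 0.07.

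Genes of the amino acid response, the ATF4 programme that includes several of the carriers, fell in 18 of 20 and rose in 1, with a median of -1.59 log2 units. NUPR1 and CHAC1 among them passed the filter only through their low glucose signals. CEBPG, a partner of ATF4 on the composite element, read 421 and 430 in high glucose, against 2067 and 2041 in low glucose (-2.27 ± 0.06). DDIT3 stood at -4.52 ± 0.07, TRIB3 at -3.85 ± 0.09 and CEBPB at -2.57 ± 0.06. The list and its direction were known from earlier results of these arrays. SLC7A5 rose on the same arrays on which these genes fell.

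The list set around glutathione and cysteine metabolism, not all of whose genes use cystine, went both ways, with 6 of 13 rising and 6 falling (median -0.13). The falls include CHAC1, at -3.55, which is also on the amino acid response list and passed the filter only through its low glucose signals. CBS, which makes cystathionine for cysteine synthesis, read 404 and 410 in high glucose, against 989 and 1151 in low glucose (-1.39 ± 0.08). HMOX1, heme oxygenase, fell by 2.27 ± 0.12 on the log2 scale. In contrast CHAC2, a glutathione-degrading enzyme, rose by 1.33 ± 0.07 and TXNRD1, thioredoxin reductase, by 0.90 ± 0.05.

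Of 9 tested enzymes of glutamine and glutamate metabolism 5 fell and 2 rose (median -0.41). ASNS, asparagine synthetase, is also on the amino acid response list. It read 1052 and 1018 in high glucose, against 3354 and 3448 in low glucose (-1.72 ± 0.06). PYCR1, an enzyme of proline synthesis, fell by 0.74 ± 0.06 on the log2 scale, and PRODH, proline dehydrogenase, fell by 1.68 ± 0.19. ALDH18A1, which makes the proline precursor from glutamate, rose by 0.68 ± 0.08. Of 20 tested genes of amino acid sensing upstream of mTORC1, 7 fell and 4 rose (median -0.21), shares near those of all genes. Those named here are the 4 with the smallest p. SESN2, the leucine sensor, which is also on the amino acid response list, fell by 1.56 ± 0.07. RRAGC, RRAGD and FNIP1, parts and partners of the Rag GTPases, stood at -0.95 ± 0.05, -1.24 ± 0.08 and -1.06 ± 0.11 and were called lower.

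Genes that act on carriers at the membrane or on their turnover, a list that also holds SLC3A2, fell in 2 of 11 and rose in 4 (median -0.01). ARL6IP5, known in rodents to bind and hold back the product of SLC1A1, read 1101 and 1052 in high glucose, against 545 and 633 in low glucose (0.87 ± 0.08). ARRDC4, an alpha-arrestin, rose by 1.02 ± 0.11 and CD44, a surface glycoprotein, by 0.52 ± 0.06. Both SLC1A1 and ARL6IP5 were thus higher in high glucose, each by less than the poly-A probe sets.

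**Figure D3:**
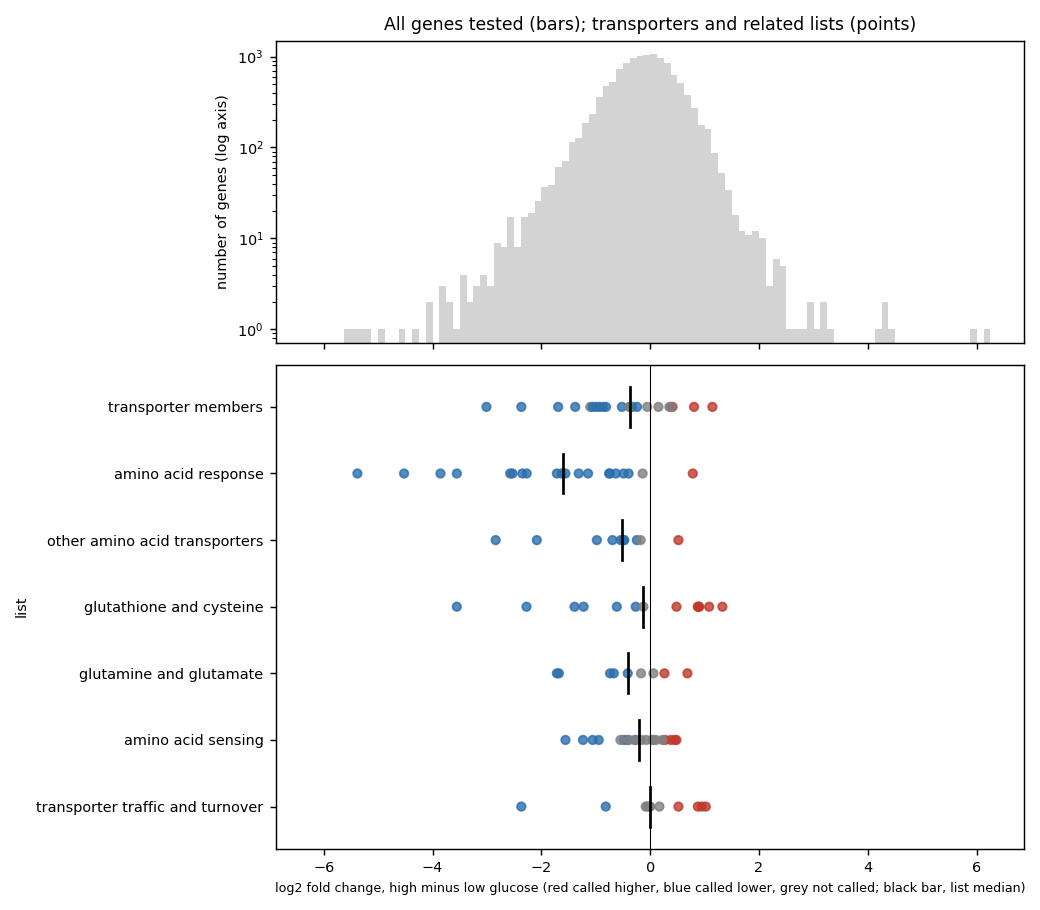
Log2 fold change, high minus low glucose (x axis), of all 12242 genes tested (upper panel, number of genes on a log axis, values beyond 6.2 drawn at the edge) and of the 24 transporter members and 6 related lists (lower panel, 1 point per gene coloured by call, black bar at the list median). The transporter median lies at -0.38 and that of the amino acid response at -1.59, against -0.10 for all genes.

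**Figure D4:**
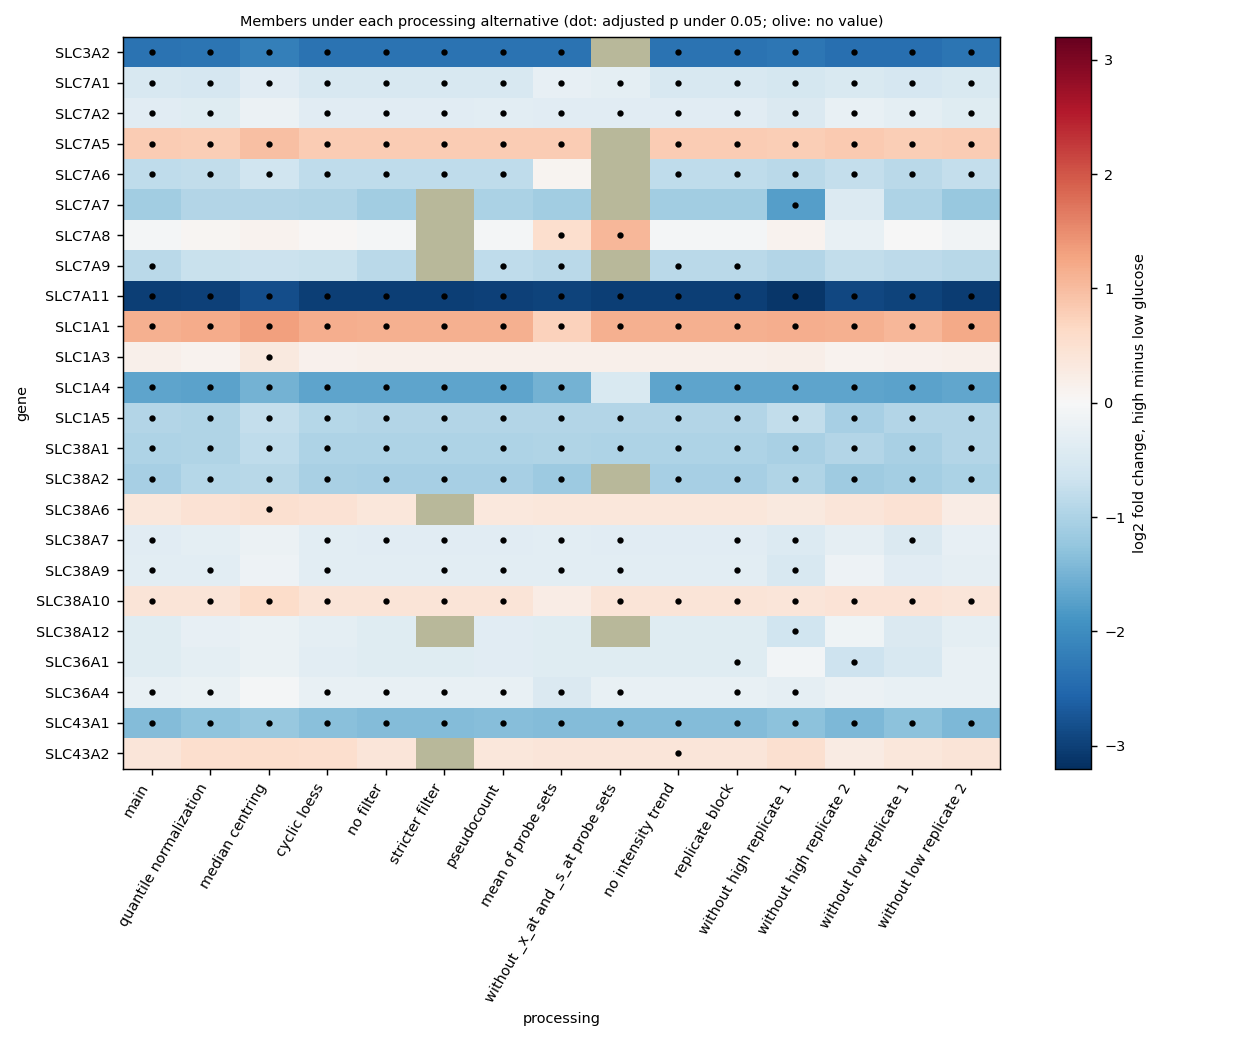
Log2 fold change, high minus low glucose (colour), of each tested member (y axis) under the processing reported and each of 14 alternatives (x axis), with a dot where the adjusted p was under 0.05. SLC7A11, SLC1A5, SLC38A1, SLC43A1, SLC7A1 and SLC1A1 carry a dot in every column, while SLC7A9, SLC38A9 and SLC36A4 lose it in several.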

How the data were processed

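RNA of 4 HEK293 cultures was measured on 1-colour Affymetrix arrays, 2 per glucose group. The deposited values are linear signal intensities, made by the authors with GCOS, per the submitters' processing notes. No source used here gives its version or settings. The 2% trimmed mean of the intensities deposited by the authors was 200.02 on each array, so they had been scaled to a common level, which hides any shift of most transcripts together. Detection calls were not used, and the number of arrays limits the precision.

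The table held 54675 probe sets. GEO's platform annotation gave 1 gene for 41097, several for 1801 and none for 11777. Gene identifiers matched RefSeq's GRCh38.p14 table for 41043 probe sets and for all 91 of the members. The deposited values name no genome build. Coordinates are given only for promoter sequences, from RefSeq.

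The 62 control probe sets were left out of the fit. Signals were log2-transformed with no pseudocount. Probe sets with a mean log2 signal at or above the median were kept (27307), and the brightest per gene was tested (12242 genes). High and low glucose were compared by limma 3.58.1 in R 4.3.3 (lmFit, eBayes with intensity trend, no covariate), two-sided, with Benjamini-Hochberg adjustment over all genes. A second fit covered all probe sets kept. The fit was tested on simulated data with few changed genes and no shift between whole arrays. The data here differ in both, so that test cannot vouch for the calls. P-values rest on the spread between 2 arrays per group, with each variance drawn toward an intensity trend over everything in the fit. Alternatives covered normalization, filter, pseudocount, choice of probe set, trend, replicate block and each array left out.

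The members and lists were chosen with earlier results of these data known. All members are named, with values on every array for members called with at least a 2-fold change, for SLC3A2 and its partners and for the largest change of each family, and, chosen after their values were seen, for further tested members. Of each other list, up to 4 called genes with the smallest p are named. Genes of these lists that passed the filter only through low glucose signals are named as well, chosen after their values were seen.
Deviations from the group means of same-numbered arrays correlated with r = -0.0039 over genes, so the numbers were not taken as pairs.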

Additional observations from a re-analysis of the deposited data

How the results depend on the processing

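Of the 17 members called, 9 were called under each of the 14 alternatives that gave them a value, and 8 lost their call under at least 1. Median centring called 5 members higher and 9 lower, against 3 and 14 as reported. Under it the median log2 fold change of all genes was 0.07, against -0.10 as reported, and 58.8% of all calls were rises, against 42.1%, so falls smaller than this shift have no settled direction. Without probe sets marked as shared between transcripts or as prone to cross-hybridise, 9 of 17 testable members were called lower. In this setting 3 were called higher, with SLC7A8 in place of SLC7A5. SLC3A2, SLC7A5, SLC7A6, SLC7A7, SLC7A9, SLC38A2 and SLC38A12 had none left, and SLC1A4 stood at -0.49 and was not called. With an array left out, 3 members were called higher and between 10 and 15 lower. With the replicate number as a block the counts were 3 and 15, with SLC36A1 added. The mean of probe sets turned SLC7A6 to 0.095 and SLC7A8 to 0.54, and SLC7A8 stood at 1.05 without the probe sets marked as shared or as prone to cross-hybridise. The cause of these turns was not tested. The call of SLC38A10 was lost with the mean of probe sets (0.23).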
